A study of Cavia porcellus with 8 samples.

Results

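The genes described here were tissue factor (F3), transglutaminase (TGM), fibrillin-1 (FBN1) and HIF1-α, which were 4 of the 13269 features measured in whole guinea pig cochleae. Male Hartley guinea pigs received either a normal silicone electrode (NOR, 3 animals) or a silicone electrode that elutes dexamethasone (DEX, 3 animals) at 7 weeks of age, and 2 further animals had no surgery (CNT). The implanted cochlea was taken 7 days after insertion, when the labels give the animals as 8 weeks old, and 1 array was hybridized per animal. The electrodes were dummies without contacts, inserted through a hole near the round window, and there was no group with surgery but no electrode, so that surgery and electrode cannot be told apart. The 4 genes were chosen by their signal in NOR relative to CNT, since they come from a published list of 40 genes at 2-fold or more in that comparison. F3 was the feature AF131949. TGM, FBN1 and HIF1-α were found by the 3 group averages printed in that list, each of which had to equal a feature's average of deposited signal within 0.5% or the last printed digit. Each of the 3 rows fitted a single feature, M19646 for TGM, AF230357 for FBN1 and AF193574 for HIF1-α. These features deviated from the printed averages by at most 0.0102%, and the next nearest feature by 16.9% for TGM, 4.24% for FBN1 and 9.83% for HIF1-α.

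Tissue factor is the cell-surface receptor of factor VIIa, and the complex of both starts the extrinsic pathway of blood coagulation after injury. Transglutaminases cross-link proteins through glutamine and lysine side chains and so stabilize fibrin and extracellular matrix. Fibrillin-1 is the main structural protein of the microfibrils of connective tissue, which also hold latent transforming growth factor-beta in the matrix. HIF1-α is the oxygen-regulated subunit of the transcription factor hypoxia-inducible factor 1, whose abundance is known to be set largely by protein degradation, so that its transcript is only 1 part of its control. Dexamethasone is a synthetic glucocorticoid, which acts through the glucocorticoid receptor on the transcription of inflammatory and matrix genes. The list names no family member for TGM, and the RefSeq gene table of the guinea pig assembly mCavPor4.1 holds 7 genes named Tgm with a number. That table matched 0 of the feature names, so that markers of hair cells, supporting cells or fibroblasts could not be looked up to check the tissue, and no sequence of the 4 genes was used here.

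The arrays fell into 2 array sets that are given by the signals and not by the labels. Replicates 1 and 2 of either electrode formed set A, whereas the replicates 3 of NOR and DEX fell together with both CNT animals into set B. Within a set, any pair of arrays had 246 to 384 signal values in common, at whichever feature, against 30 to 52 across the sets. Median signals lay between 394.8 and 404.6 in set A and between 307.9 and 324.5 in set B. The values below are linear signals after quantile normalization across the 8 arrays, in arbitrary units, unless the deposited signal is named, and differences are in log2 of the normalized signal. Both controls lay in set B, so that a difference from CNT over all animals is partly one between the sets. Values within the sets are given for the main comparisons and, in the gene lists, for DEX against NOR. The values of the lists for DEX against CNT are over all animals and so mix the sets.

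Tissue factor separated the 3 groups without overlap. Its signal was 776, 678 and 755 in NOR replicates 1 to 3, 554, 424 and 348 in DEX replicates 1 to 3, and 265.3 and 234.7 in the 2 CNT animals. All NOR animals lay above all DEX animals, and all DEX animals lay above both controls. Every DEX animal lay below every NOR animal in 2.81% of all features, and every NOR animal above both controls in 25.5%. How many of all features had every DEX animal above both controls was not counted. That order is therefore only a description, here and for TGM and HIF1-α. Means with SD were 736.5 ± 51.8 for the NOR animals (n = 3), 441.8 ± 104 for the DEX animals (n = 3) and 250.0 ± 21.67 for the controls (n = 2). The coefficient of variation was 7.03% in NOR and 23.6% in DEX, where replicate 1 was the highest and replicate 3 the lowest. In the deposited signals NOR ran from 676 to 881, DEX from 310 to 612 and CNT from 201 to 239, so the order of the groups was the same without overlap, with a wider spread in NOR than after normalization.

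Transglutaminase varied more between animals than tissue factor. Its signal was 1242, 1767 and 2580 in NOR replicates 1 to 3, 1614, 1001 and 1109 in DEX replicates 1 to 3, and 814 and 706 in CNT. All implanted animals lay above both controls, but DEX replicate 1 exceeded NOR replicate 1, so the electrode groups overlapped. NOR averaged 1863 ± 674 (SD, n = 3), DEX 1241 ± 327 (SD, n = 3) and CNT 759.6 ± 76.5 (SD, n = 2). NOR replicate 3 was above the other animals of all groups.

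Fibrillin-1 had the smallest separation of the 4 genes. Its signal was 2237, 2017 and 2822 in NOR replicates 1 to 3, 2224, 2075 and 1226 in DEX replicates 1 to 3, and 1072 and 1427 in CNT. DEX replicates 1 and 2 were at the level of NOR replicates 1 and 2, whereas DEX replicate 3 lay between the 2 controls. Group means were 2358 ± 416 for NOR (SD, n = 3), 1841 ± 538.4 for DEX (SD, n = 3) and 1250 ± 251 for CNT (SD, n = 2). NOR lay above CNT without overlap, and DEX overlapped both other groups.

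HIF1-α was nearly equal in the 2 controls, at 205 and 203. Its signal was 415, 360.2 and 607 in NOR replicates 1 to 3 and 343, 298 and 283 in DEX replicates 1 to 3. The 3 groups did not overlap, with NOR highest and CNT lowest. NOR averaged 461 ± 130 (SD, n = 3), DEX 308 ± 31.4 (SD, n = 3) and CNT 204 ± 1.45 (SD, n = 2). NOR replicate 3 lay farthest from the other NOR animals, and in the deposited signals, which ran from 412 to 549 in NOR and from 258 to 381 in DEX, the groups did not overlap either.

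**Figure D1:**
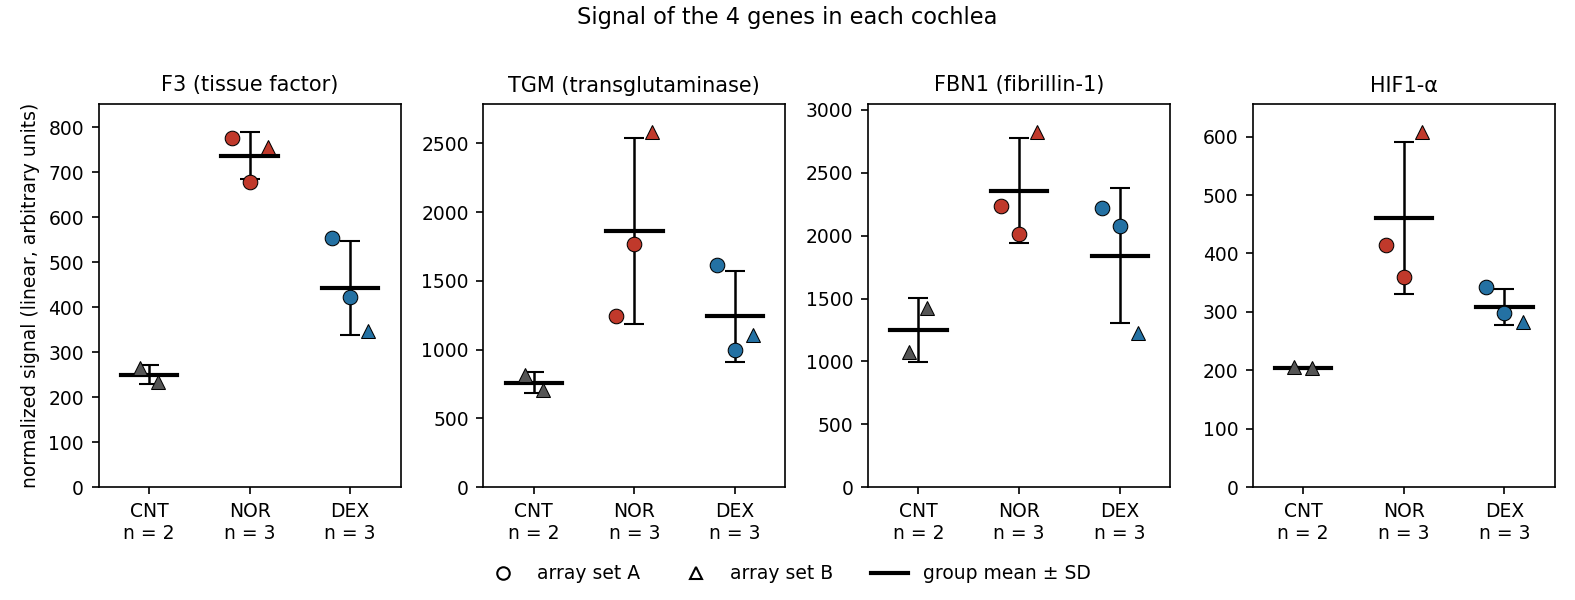
Normalized linear signal (arbitrary units) of each gene in each cochlea, 1 panel per gene, with the 3 groups on the horizontal axis. Points are animals, circles of array set A and triangles of set B, and bars are group means ± SD. F3 and HIF1-α show no overlap between groups. DEX replicate 1 reaches the NOR range in TGM, and DEX replicates 1 and 2 reach it in FBN1. DEX replicate 3 of FBN1 lies between the controls.

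The animals ranked alike in several of the genes. DEX replicate 1 was the highest DEX animal in all 4 genes, with differences from the mean of the controls between 0.75 and 1.15 on the log2 scale. DEX replicate 3 was the lowest DEX animal in F3, FBN1 and HIF1-α, and DEX replicate 2 in TGM. NOR replicate 3 was the highest NOR animal in TGM, FBN1 and HIF1-α, and in F3 it lay between the other 2. Averaged over the 4 genes, the log2 difference from the controls was 1.05, 1.05 and 1.53 in NOR replicates 1 to 3 and 0.96, 0.62 and 0.37 in DEX replicates 1 to 3.

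The comparison of NOR with CNT is the one on which the 4 genes were listed, and its values are a description without a test. The log2 difference was 1.56 for F3, 1.23 for TGM, 1.14 for HIF1-α and 0.92 for FBN1, which correspond to ratios of 2.95, 2.35, 2.20 and 1.89. In the deposited signals the ratios of the averages were larger, at 3.53, 2.91, 2.69 and 2.26 in the same order. FBN1 was therefore under 2-fold after the normalization. The list ends at 2-fold, with the features L37081 and DQ415679 just inside at ratios of deposited averages of 2.05 and 2.06. Just outside, among features named by other than an EL or EB accession, were AY289755 and Z11719 at 1.96. Fold was not the only limit of the list, since 65 of the 772 features so named were at 2-fold or more, and the listed genes also carry a p of NOR against CNT printed at or under 0.05, a further use of the same animals. Every NOR animal lay above both controls in 4 of the 4 genes, and in 25.5% of all features.

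Next, DEX was compared with CNT to see how far the 4 genes were still above the level of the cochlea without surgery under the eluting electrode. The CNT animals are also those on which the genes were listed, so the comparison is not independent of the choice. All 4 genes had a higher mean in DEX than in CNT over all animals, whereas DEX replicate 3, the DEX animal of the controls' set B, had FBN1 at -0.01 from the controls (log2). For F3 the log2 difference was 0.80 (SE 0.19, limma adjusted p = 0.0574), and the 95% interval ran from 0.35 to 1.24. TGM had 0.68 (SE 0.31, adjusted p = 0.225), HIF1-α 0.59 (SE 0.21, adjusted p = 0.143) and FBN1 0.53 (SE 0.28, adjusted p = 0.284) by limma. Thus 0 of the 4 genes passed an adjusted p of 0.05 in limma, where 2.47% of all features were called higher in DEX. Before adjustment limma gave 2 of the 4 genes, F3 and HIF1-α, both higher in DEX, as were 1719 of the 13269 features. In either direction 25.1% of all features differed before adjustment. Under the methods' t-test, run here on the quantile-normalized linear signals and not on the deposited ones, HIF1-α alone was higher before adjustment, 1 of the 4 genes, against 10.3% of all features, and 0 of the 4 passed after it. As given above, FBN1 was the gene with a DEX animal at the level of the controls. The calls depended on the setting. For HIF1-α the adjusted p was 0.0472 with the signals as deposited and 0.0356 without NOR replicate 3, and with array weights all 4 genes passed, as did 2344 of the 13269 features. For F3 the adjusted p was 0.0325 without DEX replicate 3, 0.0468 without NOR replicate 3 and 0.0230 with the replicate block. It did not pass when the fit included the array set, at a difference of 0.66 and an adjusted p of 0.0709, nor without either control (0.224 and 0.256), without DEX replicate 1 (0.131) or without DEX replicate 2 (0.123). In that fit TGM, FBN1 and HIF1-α did not pass either. For F3, over all limma alternatives and the adjusted form of the methods' t-test, the adjusted p lay between 0.00245 and 0.298.

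The share of the difference between NOR and CNT that was still present with DEX is a description without a test. It was taken as the log2 difference of DEX from CNT over that of NOR from CNT. It was 51.2% for F3, 51.7% for HIF1-α and 55.1% for TGM, and for FBN1 a difference of 0.53 was present of 0.92. On linear normalized signals the values were 39.4%, 40.5%, 43.6% and 53.4% for F3, HIF1-α, TGM and FBN1. In the deposited linear signals they were 43.8%, 49.1%, 51.4% and 64.7% in that order. The order of the 4 genes depended on the animals used. These shares set DEX and NOR animals of both array sets against controls of set B. Within set B, FBN1 had a difference of -0.01 with DEX of 1.19 with NOR, the lowest share of the 4, against 0.48 of 1.60 for F3, 0.55 of 1.77 for TGM and 0.47 of 1.57 for HIF1-α. FBN1 was also lowest without CNT replicate 1, at 0.32 of 0.71, and without DEX replicate 2, at 0.42 of 0.92. Without DEX replicate 3 it was the highest of the 4, at 0.80 of 0.92.

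**Figure D2:**
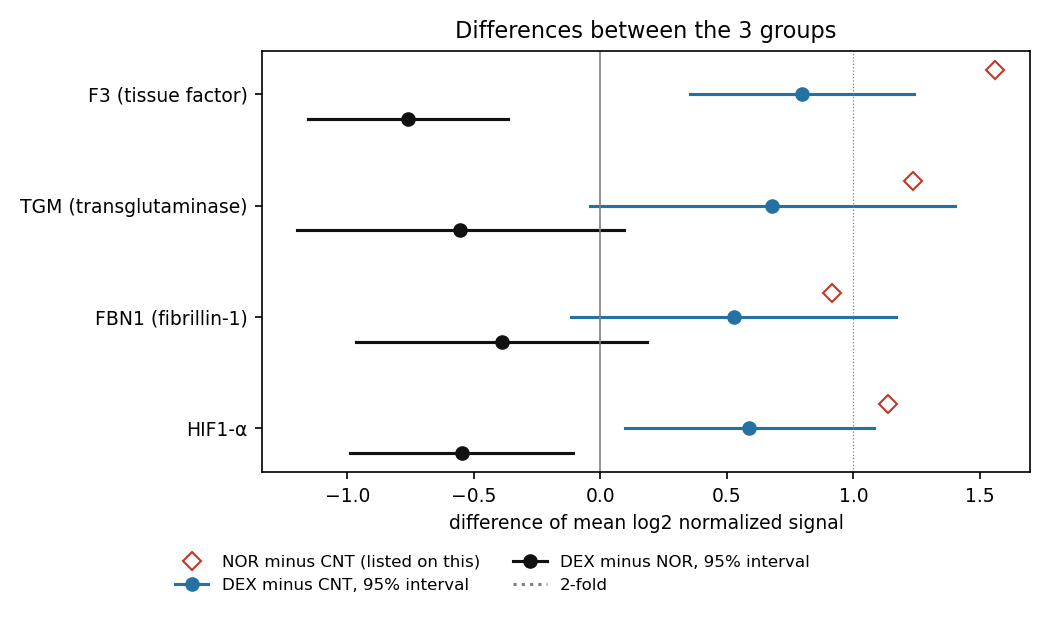
Differences of mean log2 normalized signal for each gene. Diamonds are NOR minus CNT, on which the genes were listed and which carry no interval, and dots with lines are DEX minus CNT and DEX minus NOR with 95% intervals from limma. The intervals of DEX minus NOR exclude 0 for F3 and HIF1-α and include it for TGM and FBN1, before any adjustment for the number of features.

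The direct comparison of DEX with NOR addressed whether elution of dexamethasone was accompanied by a lower signal than the normal electrode. All 4 genes had a lower mean in DEX. The NOR animals were used to list the genes for being high, so this comparison is not independent of the choice either. For F3 the log2 difference was -0.76 (SE 0.17), a ratio of 0.590 with a 95% interval from -1.16 to -0.36 (log2). TGM had -0.55 (SE 0.28, interval from -1.20 to 0.09), HIF1-α -0.55 (SE 0.19, interval from -0.99 to -0.11) and FBN1 -0.39 (SE 0.25, interval from -0.97 to 0.19). The adjusted p of limma was 1.0 for each of the 4 genes. In this comparison limma called 0 of the 4 genes and 0% of all features lower in DEX, and the smallest adjusted p of any feature was 0.235. At the unadjusted level it gave F3 and HIF1-α, 2 of the 4 genes, and 1.27% of all features. The methods' t-test, again on the quantile-normalized signals, gave F3 alone before adjustment, 1 of the 4 genes, and 1.19% of all features. After adjustment it gave 0 of the 4 genes. The published list, whose averages are those of the deposited signals, prints a p at or under 0.05 for both F3 and HIF1-α in this comparison. The result of F3 alone therefore holds for the normalized signals only. The DEX animals lay entirely below the NOR animals in 2 of the 4 genes, F3 and HIF1-α, and in 2.81% of all features. Of the 13269 features, 34 had a lower value of DEX minus NOR than F3, 72 a lower one than TGM, 77 than HIF1-α and 236 than FBN1. With array weights the log2 differences were smaller in size, at -0.41 for F3, -0.17 for TGM and -0.18 for HIF1-α. FBN1 turned to 0.03 in that setting.

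**Figure D3:**
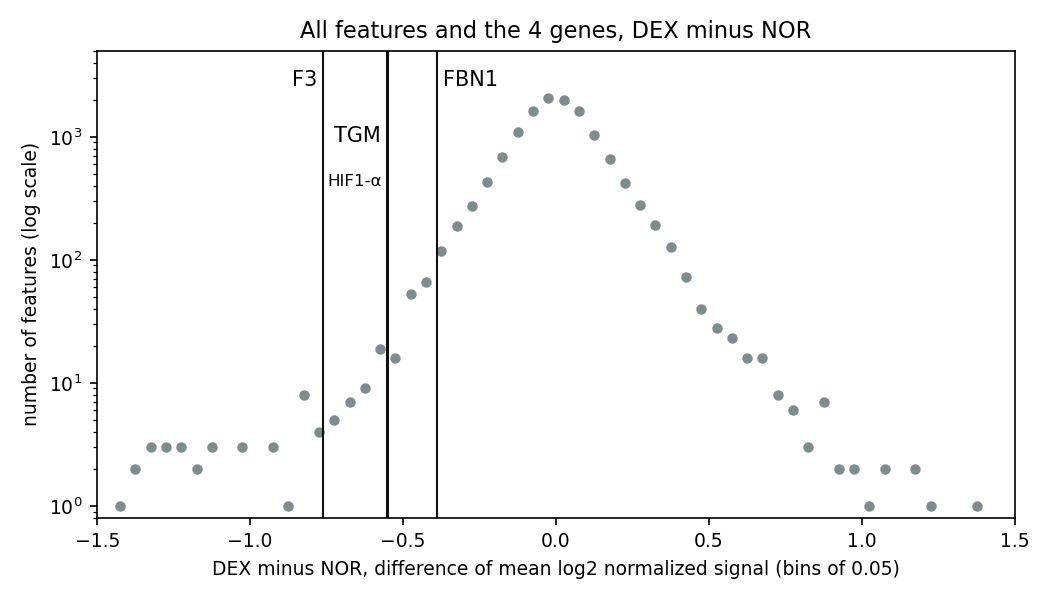
Number of features (log scale) in bins of 0.05 of the log2 difference DEX minus NOR, with the values of the 4 genes as vertical lines. The features centre on 0.00, and the 4 genes lie on the lower side at -0.76, -0.55, -0.55 and -0.39; 3 features outside ±1.5 are not drawn.

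The difference between the electrodes was then taken within each array set. Set B has a single animal for each electrode, hence no replicates there, and the log2 difference of DEX from NOR was similar in all 4 genes, at -1.12 for F3, -1.22 for TGM, -1.20 for FBN1 and -1.10 for HIF1-α. Between 0.663% and 0.904% of all features had a lower value there. In set A, with 2 animals per electrode, it was -0.58 for F3, -0.27 for HIF1-α, -0.22 for TGM and 0.02 for FBN1. The share of all features with a lower value in set A was 0.399% for F3, 4.32% for HIF1-α, 6.94% for TGM and 56.12% for FBN1. F3 was thus lower in DEX by more than the gap between same-electrode animals of set A, which was 0.20 between the NOR and 0.39 between the DEX animals. For TGM replicate 1 minus replicate 2 was -0.51 in NOR and 0.69 in DEX. Both were larger in size than its difference between electrodes in that set. For FBN1 the gaps were 0.15 in NOR and 0.1 in DEX, beside a difference of 0.02. For HIF1-α both gaps were 0.20, somewhat smaller than the difference of -0.27. With a single pair of animals per electrode, such gaps are a description and no measure of the spread between animals. The SD of DEX minus NOR over all features was 0.19 in set A and 0.40 in set B, so that set B, with single animals, was the wider. Within set B NOR replicate 3 exceeded the controls by 1.60 for F3, 1.77 for TGM, 1.57 for HIF1-α and 1.19 for FBN1 (log2), and DEX replicate 3 by 0.48, 0.55, 0.47 and -0.01. Without DEX replicate 3 the difference of DEX from NOR over the remaining animals was -0.12 for FBN1, and without NOR replicate 3 it was -0.29 for TGM and -0.33 for HIF1-α. The part of single animals, or of the array sets, in the lower means with DEX was not tested.

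Markers of blood-derived cells are given beside the 4 genes because tissue factor, transglutaminases and HIF1-α are also expressed by leukocytes. In whole cochleae, fewer cells of a type and less RNA per cell cannot be told apart. The markers come from the same published list and were likewise picked on NOR against CNT in these arrays. Of 9 leukocyte and macrophage genes, 7 fitted a single feature. In DEX against NOR 3 of the 7 had a lower mean in DEX, and the median log2 difference was 0.18, against 0.00 over all features. The 3 features GPIFCGRB1, GPIFCGRB2 and GPIFCGRB3 belong to 1 Fc-gamma receptor and lay together at 0.64, 0.67 and 0.76, so that the median of the 7 rests on them. Of the other 4 genes 3 were lower in DEX, at -0.45, -0.23 and -0.01. The row with the symbol CD18, which the published list describes as the glycoprotein Mo1-alpha, was at 0.18. The values ran from -0.45 for MHC class II (AB084158), the antigen-presenting complex, to 0.76 for the Fc-gamma receptor GPIFCGRB3 (D13693), and 0 of the 7 were called in limma. In DEX against CNT 6 of the 7 were called higher, against 2.47% of all features, with a median of 1.60 against 0.01 over all features. The summed signal of the 7 genes was between 9397 and 16490 in NOR, between 12230 and 15000 in DEX and between 4796 and 4962 in CNT, and none of the 7 was at 0. In set A the median log2 difference of DEX from NOR was 0.40 for these markers, and in set B it was -0.35. The 2 T cell genes CD8-α (AY303773) and CD-8β (AY303774) had -0.20 and -0.19 over all animals, -0.08 and -0.05 in set A and -0.43 and -0.48 in set B, with summed signals from 233 to 265 in NOR, from 194 to 257 in DEX and from 92.4 to 117 in CNT. Both were called higher in DEX than in CNT, at 1.25 and 0.90. The part of such cells in the values of the 4 genes was not tested.

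**Figure D4:**
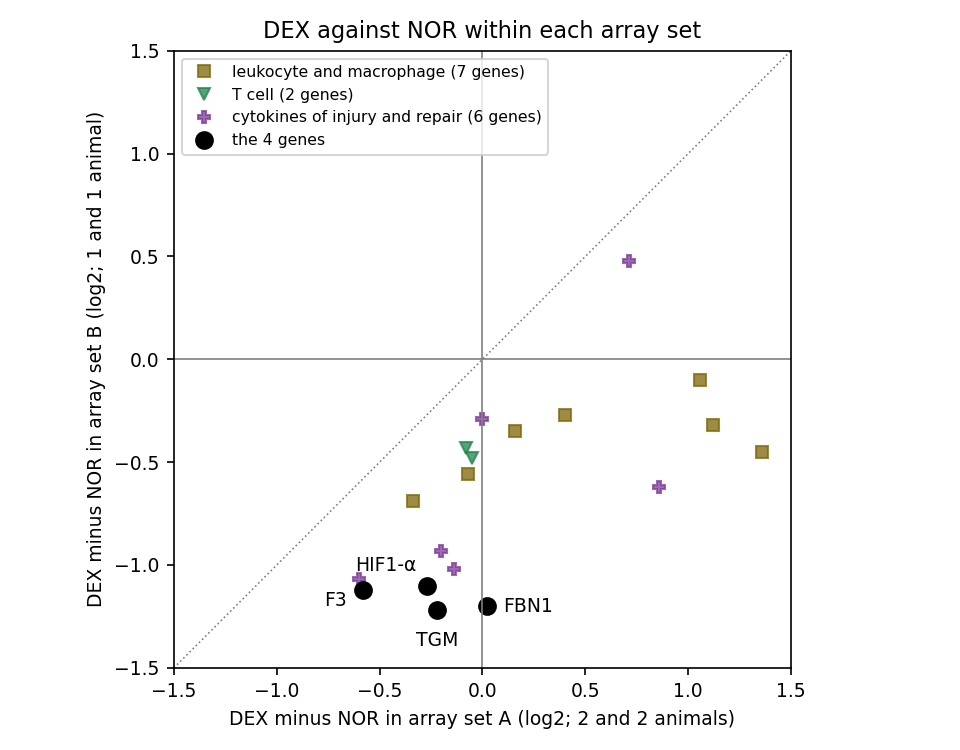
Log2 difference of DEX from NOR in array set A (horizontal, 2 animals per electrode) and in set B (vertical, 1 animal per electrode) for the 4 genes, 7 leukocyte and macrophage genes, 2 T cell genes and 6 cytokine genes. The 4 genes lie between -1.22 and -1.10 in set B, and along set A they spread from F3 at -0.58 to FBN1 at 0.02.

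Cytokines of injury and repair from the same list were also compared, since interleukin-1 beta and tumor necrosis factor-alpha are known inducers of tissue factor, and transforming growth factor-beta of matrix genes. Of 7 such genes, 6 fitted a single feature. In DEX against NOR 4 of the 6 had a lower mean, the median log2 difference was -0.27 and 0 of the 6 were called by limma. Interleukin-1 beta (AF119622) had the lowest value, at -0.76 (SE 0.29), next to -0.76 for F3. Tumor necrosis factor-alpha (U77036) and transforming growth factor-beta (AF191297) were both at -0.44, with SEs of 0.24 and 0.18. Both were lower in set B, with 1 animal per electrode, where tumor necrosis factor-alpha was at -1.02 and transforming growth factor-beta at -0.93, against -0.14 and -0.20 in set A. Interleukin-1 beta was low in both sets, at -0.60 in A and -1.07 in B, and CXCL1 was high in both, at 0.71 and 0.48. The chemokine CCL2 (L04985) turned from 0.86 in set A to -0.62 in set B. The median of the 6 genes was -0.07 in set A and -0.78 in set B. The chemokine CXCL1 (U95810) had the highest value at 0.63 (SE 0.29). In DEX against CNT 4 of the 6 were called higher, against 2.47% of all features, and the median was 1.32 against 0.01. These genes, too, were listed for being high against the same controls.

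Finally, the genes nearest in pattern were looked up by the root mean square difference over the 8 arrays of log2 signals relative to the mean of the controls. Among the 41 other single-feature genes of the published lists, the nearest to F3 was tumor necrosis factor-alpha at 0.29, followed by MHC class II at 0.30 and CD-8β at 0.33. The nearest to HIF1-α was transforming growth factor-beta at 0.16, followed by MHC class II at 0.21 and TGM at 0.24. For TGM the nearest was HIF1-α at 0.24, followed by CD-8β at 0.29 and transforming growth factor-beta at 0.33. FBN1 was nearest to AO (AB021219), a leukotriene B4 12-hydroxydehydrogenase, at 0.24, then to HIF1-α at 0.26 and to the flavin-containing monooxygenase FMO5 (L37081) at 0.27. Among the 4 genes themselves the distance was smallest between TGM and HIF1-α at 0.24 and largest between F3 and FBN1 at 0.48. Over all 13268 other features, HIF1-α ranked 3rd nearest to TGM, and transforming growth factor-beta ranked 3rd nearest to HIF1-α. The other named neighbours ranked lower, tumor necrosis factor-alpha at 7 for F3, TGM at 30 for HIF1-α, and AO at 38 and HIF1-α at 64 for FBN1. The nearest feature to F3 was EL943643 at 0.20, that to TGM EL943222 at 0.21, that to FBN1 EB372279 at 0.15 and that to HIF1-α EL940678 at 0.12, none of which has a gene name in the files. EL943782 was the feature 2nd nearest to both TGM and HIF1-α, at 0.23 and 0.16.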

How the data were processed

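The deposited values were linear signal intensities, 1 for each feature and animal. According to the methods, labeled cDNA was hybridized to 1-color NimbleGen guinea pig arrays, Agilent software read the signals, and the authors combined different probes of the same gene. The submitters' processing notes name RMA without its settings. Between arrays, the log2 quartiles or medians were up to 0.39 apart, above the limit of 0.05, and quantile normalization was applied. A limma model with 3 groups was fitted to all 13269 features of all 8 arrays, with Benjamini-Hochberg adjustment within each comparison. A feature was called at an adjusted p under 0.05, without a fold minimum. The members, the gene lists and the rule for array sets (at least 150 shared signal values) were chosen with earlier results of these data known. All 4 genes were named with all values, with the 3 nearest in pattern and the ends of each list.

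Replicates were separate animals numbered in the labels. Residuals of NOR and DEX arrays with the same number correlated at 0.221, 0.360 and 0.526, above the limit of 0.1 for a pairing by number. However, different numbers also correlated at 0.205 and 0.328 within an array set and at -0.436 to -0.272 across sets, so that the correlations followed the sets, and the main fit had no block.

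Of the 49 rows of the published lists 42 fitted 1 feature, and 7, among them GPR34, C3AR1 and CCL5 of the marker and cytokine lists, were not used here. Lists of coagulation, hypoxia and matrix genes could not be applied because 0 features matched an accession of the RefSeq table, and promoter motifs were not searched. The fit was tested on simulated data with independent errors and no array sets, so the simulation does not bear on the effect of the sets. R 4.3.3, limma 3.58.1, pandas 2.3.3 and matplotlib 3.10.9 were used. The number of arrays limits the precision.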

Additional observations from a re-analysis of the deposited data

How the results depend on the processing

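Over 22 alternative settings planned with earlier results known, F3, TGM and HIF1-α kept a lower mean in DEX than in NOR, from -1.12 to -0.41 for F3, from -1.22 to -0.17 for TGM and from -1.10 to -0.18 for HIF1-α (log2). FBN1 turned to 0.03 with array weights and to 0.02 within array set A. Within set B DEX minus NOR was -1.12 (F3), -1.22 (TGM), -1.20 (FBN1) and -1.10 (HIF1-α), and within set A -0.27 for HIF1-α. F3 was at -0.74 in the methods' t-test, where it passed before adjustment and not after it. Calls in DEX against CNT moved most with array weights, where all 4 genes passed, as did 2344 of the 13269 features, at 1.07 (F3), 0.99 (TGM), 0.79 (FBN1) and 0.71 (HIF1-α). F3 also passed at 0.80 without the lowest 25% of features, where fewer features were tested, at 0.80 with trend and robust variances and at 0.87 with the replicate block, and HIF1-α at 0.85 with the signals as deposited and at 0.59 in the methods' t-test before adjustment. The replicate block changed no other call of the 4 genes. With 1 animal left out F3 lay between 0.62 and 0.96, passing without DEX replicate 3 and without NOR replicate 3, and HIF1-α between 0.51 and 0.65, passing without NOR replicate 3. Within set B DEX minus CNT was 0.48 for F3 and -0.01 for FBN1. NOR minus CNT moved to 1.82 (F3) and 1.42 (HIF1-α) with the signals as deposited and to 1.77 (TGM) and 1.57 (HIF1-α) within set B. The cause was not tested in any of these.

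Counts of all features called moved more. Features higher in DEX than in CNT, 328 in all, numbered 535 in the deposited signals, 214 after centring on medians, 536 without the lowest 25%, 1369 and 0 in the methods' t-test before and after adjustment, 506 under trended robust variances, 2344 under array weights, 920 with the replicate block, 965 with the array set as a term and 12 to 654 with 1 animal left out (12 without CNT replicate 1, 17 without CNT 2, 50 without DEX 1, 64 without DEX 2, 116 without NOR 2 and 654 without NOR 3). Those higher in NOR, 536 in all, numbered 974 as deposited, 1279 and 0 in the methods' t-test, 242 in a fit of only the compared groups, 2043 with array weights, 1148 with the replicate block, 1347 with the array set and 42 to 620 with 1 animal left out (51 without CNT replicate 1, 42 without CNT 2, 239 without DEX 1, 349 without NOR 1 and 119 without NOR 2). With 1 control left out, the remaining one was given the spread of the electrode groups. Those lower in DEX than in NOR numbered 158 in the methods' t-test before adjustment and 0 otherwise.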
